A study of Mus musculus with 6 samples.

Results

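The 33 genes described here encode the machinery by which osteoclasts and lysosomes acidify a closed space: the subunits of the vacuolar proton pump, the chloride-proton exchangers of the CLC family, the cation channels of the lysosomal membrane, and the enzyme and exchanger that supply protons and remove bicarbonate. They were chosen by gene symbol, with earlier results of these data known, as 33 of the 16775 genes in the table. Of them, 32 passed the filter on low counts. Atp6v0e2, the remaining member, had 4, 6 and 4 counts with verapamil against 7 and 8 counts in controls and was not tested.

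The libraries came from osteoclasts made from wild type mouse bone marrow macrophages, which were grown in 30 ng/ml M-CSF, the growth factor of macrophages, and differentiated with 50 ng/ml RANKL, the cytokine that drives osteoclast formation. The groups were 3 libraries of verapamil-treated osteoclasts and 2 libraries of control osteoclasts (replicates 1 and 3), all from cultures that received M-CSF and RANKL. Verapamil blocks L-type voltage-gated calcium channels, and its dose and timing are not given in the labels. Day 5 stands in the titles, while the protocol describes medium changes up to day 7. Whether replicates came from separate animals or cultures is not stated, and the p-values therefore reflect only how far these libraries vary, which may be technical.

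An osteoclast seals off a patch of bone and pumps protons into the gap, which dissolves the mineral and activates its proteases. The pump is built of a membrane sector, V0, through which protons pass, and a cytosolic sector, V1, which burns ATP. Carbonic anhydrase 2 makes the protons from carbon dioxide and water, and the anion exchanger Slc4a2 removes the bicarbonate left behind. ClC-7, with its partner Ostm1, exchanges chloride for protons. Loss of Tcirg1, Clcn7, Ostm1 or Car2 function causes osteopetrosis, a disease of dense bone. The same pump and exchangers acidify ordinary lysosomes, where channels of the TRPML and TPC families release cations into the cytosol.

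Verapamil-treated osteoclasts had higher levels of 7 of 12 CLC and lysosomal channel genes and of 4 pump subunits, and a lower level of carbonic anhydrase 2. In edgeR's quasi-likelihood test, with p-values adjusted by the Benjamini-Hochberg method over all 12619 genes tested, 11 of the 32 tested members were higher with verapamil, where 9.99% of all genes were, and 1 was lower, where 15.4% of all genes were. In either direction 12 of 32 were called, against 25.4% of all genes. The median log2 fold change was 0.18 over the 32 members and -0.01 over all genes tested. All 3 verapamil libraries lay above both controls for 17 members, an arrangement found for 27.7% of all genes, and the groups did not overlap in either direction for 19 members, against 56.7% of all genes. By role, 4 of 18 pump and accessory subunits were higher and 0 lower (median 0.11), and 7 of 12 CLC and lysosomal channel genes were higher and 0 lower (median 0.48). The difference between these roles was not tested.

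Of the 12 called members, 5 were called whichever library was left out: Atp6v0d2, Atp6v1c1, Mcoln1, Mcoln3 and Car2. The number of members called higher was 5, 4 and 4 without verapamil replicates 1, 2 and 3. Leaving out any library leaves fewer degrees of freedom. The standard error of Atp6v0a1 rose from 0.0876 to 0.125, 0.132 and 0.134 without verapamil replicates 1, 2 and 3. It did not rise without control replicate 1 or 3. Why fewer members were called without a verapamil library was not tested. Without control replicate 1 or 3 a single control remains and its spread is not measured. The number called lower was 1 with verapamil replicate 1, 2 or 3 left out, and 2 and 4 with control replicates 1 and 3 left out. The share of all genes called moved too: it was 11.8%, 12.4% and 11.6% without verapamil replicates 1, 2 and 3, and 35.3% and 60.9% without control replicates 1 and 3. In the last setting 20 of 32 members were called, close to that share.

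**Figure D1:**
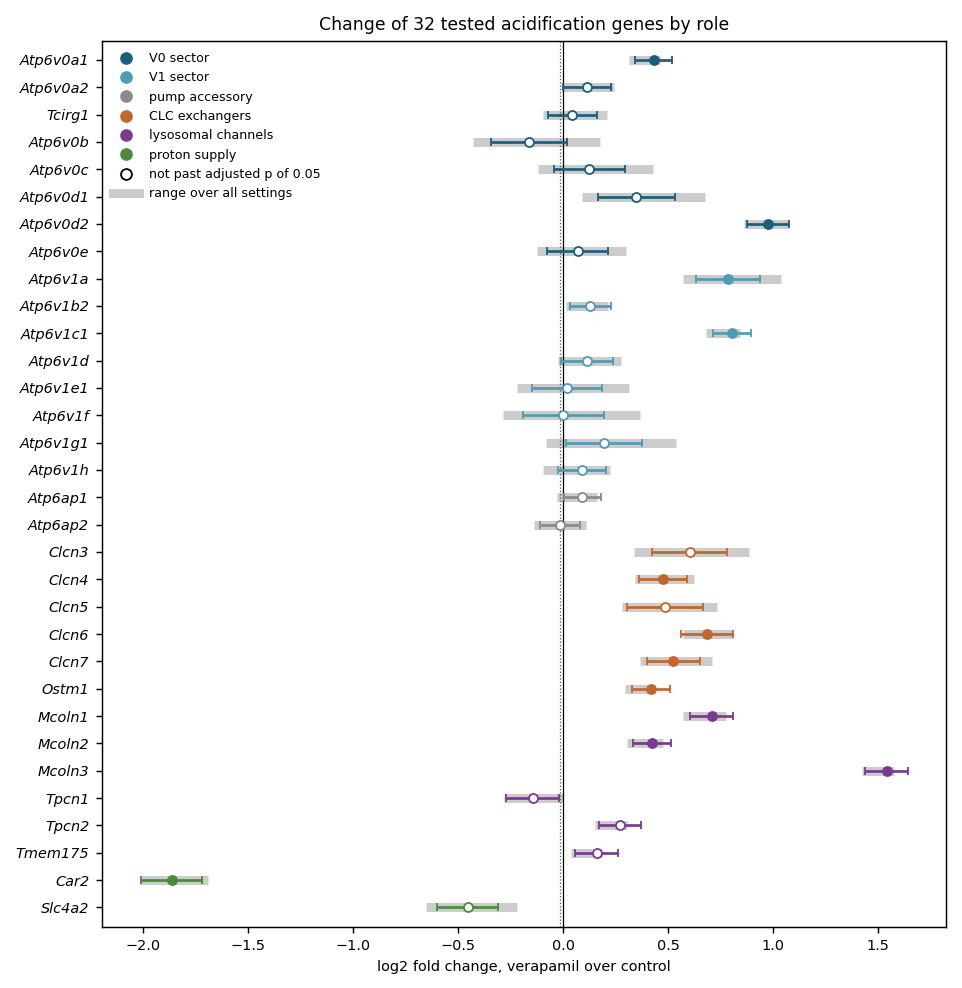
Log2 fold change (verapamil over control) of the 32 tested members, ordered and coloured by role. Points are edgeR estimates with their standard errors, filled where the adjusted p is under 0.05; grey bars span the estimates of all settings, including those that leave out a library, and the dotted line is the median of all genes (-0.01). All 6 genes of the CLC group lie to the right of 0, Mcoln3 lies farthest right (1.54) and Car2 farthest left (-1.86).

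Levels can be compared between genes only per length, here as CPM, counts scaled to library size, per kilobase of annotated exon. On that scale Atp6v0c, which encodes the proton-carrying ring of V0, was highest at 565 ± 24.5 CPM per kilobase with verapamil (SD, n = 3) and 519 ± 137 in controls (SD, n = 2). Its reads may include those of the pseudogenes Atp6v0c-ps1 and Atp6v0c-ps2, so its level is uncertain. The 13 highest members in controls were all pump or accessory subunits, from Atp6v0c to Atp6v0e (55.8 ± 3.22 with verapamil, 53.2 ± 10.9 in controls). Clcn7 led the ion transporters (76.1 ± 1.66 with verapamil, 52.9 ± 9.04 in controls), and Mcoln2 led the lysosomal channels (29.4 ± 0.526 and 21.9 ± 0.421). The lowest tested members in controls were Clcn6 (3.82 ± 0.189 with verapamil, 2.37 ± 0.269 in controls) and Clcn3 (2.86 ± 0.251 and 1.88 ± 0.474). In the order of levels with verapamil, Atp6v0d2 stood 2nd, against 4th in controls. Atp6v1a stood 4th against 9th, Mcoln3 21st against 28th and Car2 32nd against 23rd. Of the 31 pairs of neighbours in the order, 9 had overlapping library ranges with verapamil and 20 in controls, so the order within such pairs is not resolved. All annotated exons of a gene can be longer than its longest transcript, as for Atp6v0b (2051 and 1000 bases). The order depends on the length used and was not repeated with the longest transcript.

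**Figure D2:**
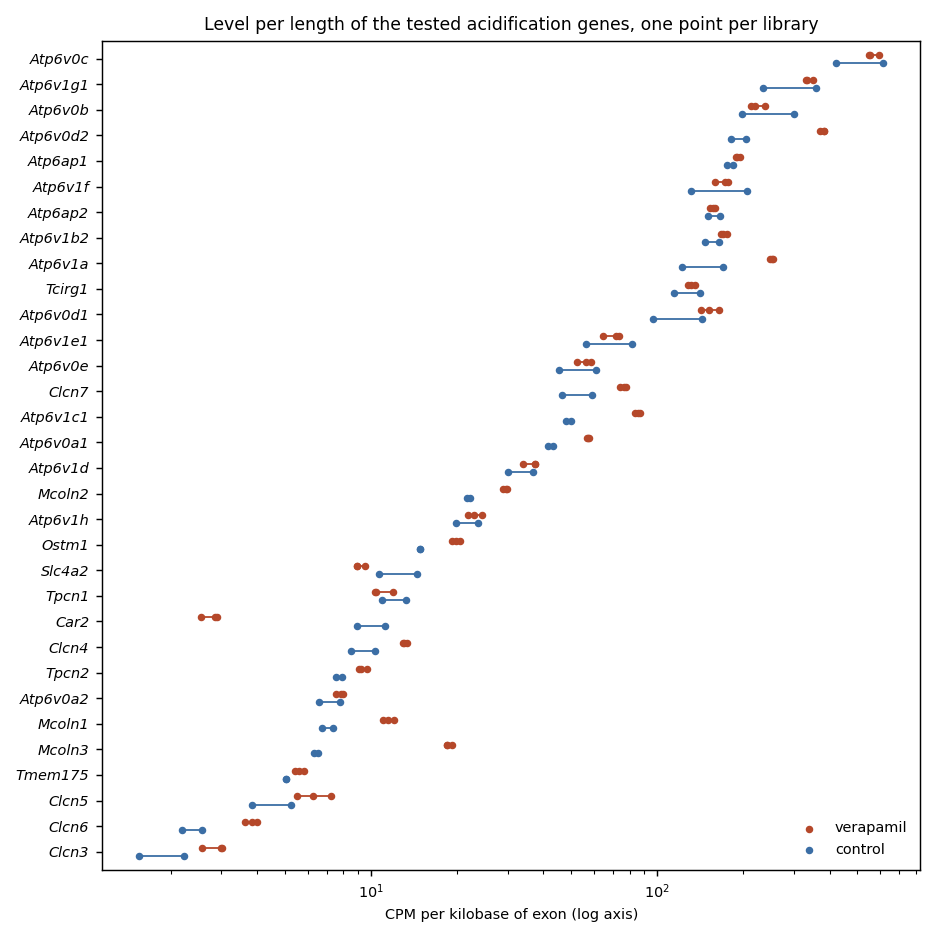
Level of each tested member in CPM per kilobase of exon on a log axis, 1 point per library, verapamil above control in each row, ordered by the control mean. The controls are spread widely for Atp6v0c, Atp6v1g1, Atp6v0b and Atp6v1f, and Atp6v0d2, Atp6v1a, Mcoln3 and Car2 have verapamil points clearly apart from the controls.

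Among V0 subunits 2 of 8 tested were higher with verapamil and 0 lower, against 9.99% and 15.4% of all genes tested. Atp6v0d2, an isoform of the d subunit that is abundant in osteoclasts and also takes part in the fusion of their precursors, had 1040.5, 1009 and 1035 CPM in verapamil libraries, against 492 and 553 CPM in controls. The verapamil libraries lay close together and all of them above both controls, and the log2 fold change was 0.98 (SE 0.0996, edgeR adjusted p = 0.00159). Atp6v0a1, an a isoform found on endosomes and lysosomes of many cells, had 374, 374 and 378 CPM with verapamil, against 273 and 284 CPM in controls. Its groups did not overlap either (log2 0.43, SE 0.0876, edgeR adjusted p = 0.0164). It was no longer called with verapamil replicate 1, 2 or 3 left out (edgeR adjusted p = 0.0919, 0.101 and 0.111) and with upper quartile factors (0.0508), while its log2 fold change stayed between 0.31 and 0.46 in all settings.

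Tcirg1, the a3 isoform that carries the pump to the ruffled border of osteoclasts, was among the 6 V0 subunits that did not pass the test. It had 622, 601 and 591 CPM with verapamil, between the 648 and 526 CPM of the controls. Atp6v0c had 2009, 1863 and 1868 CPM with verapamil, again between the controls at 2083 and 1428 CPM. Atp6v0d1, the d isoform made by most tissues, had 295, 255 and 273 CPM with verapamil, against 258 and 173 CPM in controls. Its groups overlapped and the estimate, log2 0.35, did not pass (SE 0.181, edgeR adjusted p = 0.2). The other uncalled V0 members, Atp6v0a2, Atp6v0b and Atp6v0e, had log2 fold changes from -0.16 to 0.11 and overlapping groups. Antisense transcripts cover 11.8% of the exon bases of Atp6v0b and 9.86% of those of Atp6v0a2. Strand use in counting is not stated, so reads of such pairs cannot be told apart.

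The mix of isoforms was compared as a share of CPM per kilobase. Atp6v0d2 made up 70.0%, 72.3% and 71.5% of the d subunits with verapamil, against 55.7% and 67.9% in controls. Tcirg1 made up 67.7%, 66.8% and 66.2% of the 3 a subunits with verapamil, against 74.5% and 69.1% in controls. Each share was thus on 1 side of both controls in all verapamil libraries. The exact two-sided permutation test gave p = 0.2 for both shares, which is the smallest p that 3 against 2 libraries allow. The difference in the Atp6v0d2 share, 9.44 percentage points, was 3.35 with control replicate 1 left out and 15.5 with control replicate 3 left out. That in the Tcirg1 share, -4.90 points, was -2.20 and -7.61.

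In the V1 sector 2 of 8 subunits were higher and 0 lower, against 9.99% and 15.4% of all genes tested. Atp6v1c1, the C subunit, which links V1 to the stalk and is released when the pump comes apart, had 487, 467 and 480 CPM with verapamil, against 281 and 268 CPM in controls. The groups were well apart (log2 0.80, SE 0.0904, edgeR adjusted p = 0.00223). Atp6v1a, the catalytic A subunit that binds ATP, had 1499, 1523 and 1527 CPM with verapamil, against 739 and 1025 CPM in controls. Here the controls differed from each other far more than the verapamil libraries did (log2 0.78, SE 0.152, edgeR adjusted p = 0.0142). The estimate came to 0.57 with control replicate 1 left out and 1.04 with control replicate 3 left out. With verapamil replicate 1, 2 or 3 left out it was no longer called (edgeR adjusted p = 0.0636, 0.061 and 0.0653).

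Atp6v1b2, the B subunit that pairs with A in the ATP-binding ring, was not called although its groups did not overlap (log2 0.13, edgeR adjusted p = 0.355). The other uncalled V1 genes were Atp6v1d, Atp6v1e1, Atp6v1f, Atp6v1g1 and Atp6v1h, subunits of the central and peripheral stalks, and their log2 fold changes ran from 0.00 to 0.19. Atp6v1g1, the highest V1 member per length, had 397, 377 and 377 CPM with verapamil, between the controls at 406 and 265 CPM. Atp6v1f had 188, 169 and 183 CPM with verapamil, and the controls lay on either side at 219 and 140 CPM. Its direction depended on which control was used, at log2 0.37 with control replicate 1 left out and -0.29 with control replicate 3 left out. Both accessory subunits, Atp6ap1, which assists assembly and trafficking of the pump, and Atp6ap2, the prorenin receptor, did not pass. Atp6ap1 had 589, 573 and 571 CPM with verapamil, against 531 and 555 CPM in controls (log2 0.09, SE 0.0879, edgeR adjusted p = 0.468).

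**Figure D3:**
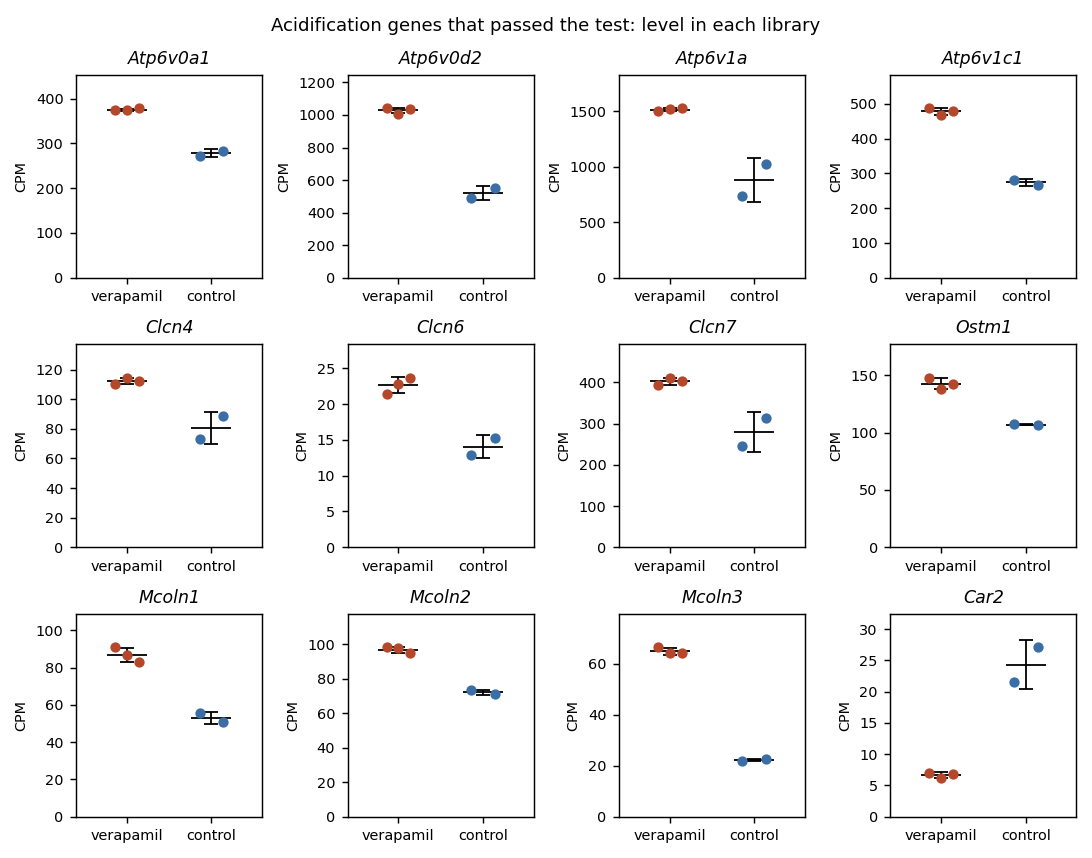
CPM in each library for the 12 called members, verapamil on the left and control on the right of each panel, each on its own axis from 0. Points are libraries, and bars give mean and SD. In 11 panels all verapamil points lie above the controls, and for Car2 (at most 6.98 CPM with verapamil, 21.6 and 27.1 CPM in controls) they lie below.

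Of the 6 genes of the CLC group, 4 were higher with verapamil and 0 lower, against 9.99% and 15.4% of all genes tested. Clcn7, the exchanger of lysosomes and the ruffled border, had 393, 411 and 403 CPM with verapamil, against 246 and 314 CPM in controls. All verapamil libraries lay above both controls (log2 0.52, SE 0.127, edgeR adjusted p = 0.029). Ostm1, the membrane protein that stabilises ClC-7, had 148, 138 and 143 CPM with verapamil, against 107 and 107 CPM in controls (log2 0.42, SE 0.091, edgeR adjusted p = 0.0205), a call lost with upper quartile factors (0.0715). An antisense transcript covers 5.69% of its exon bases, and 11.5% of those of Clcn4. The controls of Ostm1 were almost equal, unlike those of Clcn7. Clcn6, an exchanger of late endosomes, had 21.4, 22.8 and 23.7 CPM with verapamil, against 12.9 and 15.2 CPM in controls (log2 0.69, SE 0.124, edgeR adjusted p = 0.0111). Clcn4, an endosomal exchanger, had 111, 114 and 112 CPM with verapamil, against 73.1 and 88.5 CPM in controls (log2 0.48, SE 0.115, edgeR adjusted p = 0.0286).

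Clcn3 and Clcn5, the other endosomal exchangers, did not pass, although neither had overlapping groups. Clcn3 had 43.9, 51.4 and 51.2 CPM with verapamil, against 26.4 and 37.9 CPM in controls (log2 0.60, SE 0.179, edgeR adjusted p = 0.0544). It stood just outside the threshold and was called with DESeq2's size factors in edgeR (adjusted p = 0.0487) and by DESeq2's Wald test (0.0128). Clcn5 had 63.3, 82.9 and 71.6 CPM with verapamil, against 43.8 and 59.9 CPM in controls (log2 0.49, SE 0.18, edgeR adjusted p = 0.0982). The calls of Clcn4, Clcn7 and Ostm1 were lost when any verapamil library was left out (edgeR adjusted p from 0.0986 to 0.129), and that of Clcn6 without verapamil replicate 2 or 3 (0.0609 and 0.0661). With control replicate 3 left out, Clcn3, Clcn5, Clcn6 and Clcn7 had log2 fold changes of 0.89, 0.73, 0.81 and 0.71, and with control replicate 1 left out they had 0.37, 0.28, 0.58 and 0.36.

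The TRPML channels, which let calcium and other cations out of lysosomes and endosomes, were higher in all 3 genes. Mcoln3, whose product TRPML3 sits in early endosomes and autophagosomes, had the largest rise of the members, with 66.3, 64 and 64 CPM with verapamil against 22 and 22.6 CPM in controls. Libraries within each group were nearly equal, and the log2 fold change of 1.54, or 2.91-fold, was many times its standard error (SE 0.102, edgeR adjusted p = 0.000543). Mcoln1, the main TRPML channel of lysosomes, had 90.7, 86.6 and 82.9 CPM with verapamil, against 55.5 and 50.9 CPM in controls (log2 0.71, SE 0.102, edgeR adjusted p = 0.00511). Mcoln2, a TRPML channel found in immune cells, had 98, 97.5 and 94.8 CPM with verapamil, against 73.1 and 71.2 CPM in controls (log2 0.42, SE 0.0907, edgeR adjusted p = 0.0194). It was no longer called with verapamil replicate 1, 2 or 3 left out (edgeR adjusted p = 0.105, 0.116 and 0.108) and with upper quartile factors (0.0658). On GRCm38, Mcoln3 (chr3:146093277-146141808) and Mcoln2 (chr3:146149796-146195514) are neighbours, while Mcoln1 lies at chr8:3500519-3515232.

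The other lysosomal cation channels were not called. Tpcn1 had 88.3, 101 and 87.2 CPM with verapamil, overlapping the controls at 92.3 and 112 CPM (log2 -0.15, SE 0.127, edgeR adjusted p = 0.422). Tpcn2 stood at log2 0.27 (SE 0.1, edgeR adjusted p = 0.097), and Tmem175, a lysosomal channel for potassium and protons, at 0.16 (SE 0.103, edgeR adjusted p = 0.286). The groups of Tpcn2 and Tmem175 did not overlap. Dgkq on the opposite strand covers 35.3% of the exon bases of Tmem175, so its counts are uncertain.

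Of the proton supply genes 1 was lower and 0 higher. Car2, carbonic anhydrase 2, had 6.98, 6.15 and 6.9 CPM with verapamil, against 21.6 and 27.1 CPM in controls. That is 142, 119 and 140 counts with verapamil and 480 and 634 counts in controls, and the groups were far apart (log2 -1.86, SE 0.145, edgeR adjusted p = 0.00076). Car2 was called lower in each setting tried, with estimates from -2.01 to -1.69. Slc4a2, the anion exchanger AE2, had 74.5, 79.3 and 74.6 CPM with verapamil, against 88.8 and 120 CPM in controls. Its verapamil libraries lay below both controls, but the estimate, log2 -0.46, did not pass (SE 0.143, edgeR adjusted p = 0.0638), whereas it did by DESeq2's Wald test (adjusted p = 0.0389) and with upper quartile factors (-0.57, edgeR adjusted p = 0.0181). It came to -0.65 with control replicate 1 left out and -0.22 with control replicate 3 left out, and was called in both. Fastk and the small RNA Gm22333 on the opposite strand cover 13.7% of the exon bases of Slc4a2.

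Promoter letters were compared because many lysosomal genes are known to carry E-boxes bound by the MiT factors TFEB, TFE3 and MITF. Windows from RefSeq on GRCm38.p6, which run from 250 bases before to 50 after an annotated start, were found for 25 of the 33 members. They numbered 34, since a gene can have more than 1 annotated start. The E-box core CACGTG, which reads the same on both strands, was in windows of 9 of these 25 members (36%), and in those of 11.7% of the 10070 tested genes that had a window. Its extended form TCACGTGA, which contains the core, was found in 6 of 25 members (24%) and 2.18% of those genes. The form with a further G before and C after was in 0 members and 0.785% of those genes. Of 9 members called higher with a window 6 held CACGTG, and of 15 uncalled members 3 did, a contrast that was not tested. The called members Atp6v0d2, Atp6v1c1 and Car2 had no window, and the untested Atp6v0e2 had a window without the core. Of the 6, every member except Mcoln1 lost its call without verapamil replicate 2 or 3. A match is a description of letters and does not show that a factor binds there.

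The stretches around CACGTG in members called higher are shown first, then those in uncalled members, each from its gene's strand with the core in capitals. The position of the first C is counted from 0 at the annotated start of its window. It is -131 for Atp6v1a, -153 for Clcn4, -15 and 7 for Clcn7, -72 for Mcoln2, -36 and -18 for Atp6v0b, -3 for Atp6v0d1 and 3 for Atp6v0e. For Atp6v1a, Clcn4 and Mcoln2 that start lies inside the gene's listed span (chr16:44085402-44139702, chr7:7282309-7300916 and chr3:146149796-146195514). Their cores therefore lie downstream of the gene's listed 5' end.
Atp6v1a, chr16:44139373-44139402, minus strand: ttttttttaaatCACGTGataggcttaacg
Clcn4, chr7:7299693-7299722, minus strand: agacagacgggaCACGTGaatccacacgga
Clcn7, chr17:25133364-25133393, plus strand: tccgtcgtcagtCACGTGggcaccgatgat
Clcn7, chr17:25133386-25133415, plus strand: ccgatgatagatCACGTGagacctgggcgc
Mcoln2, chr3:146150090-146150119, plus strand: tccctgagctcaCACGTGgaccccattctg
Atp6v0b, chr4:117887348-117887377, minus strand: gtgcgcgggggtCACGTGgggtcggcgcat
Atp6v0b, chr4:117887330-117887359, minus strand: gggtcggcgcatCACGTGcgccggtcaggt
Atp6v0d1, chr8:105566050-105566079, minus strand: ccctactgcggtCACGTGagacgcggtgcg
Atp6v0e, chr17:26676387-26676416, plus strand: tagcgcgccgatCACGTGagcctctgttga

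For Mcoln1 and Clcn6, the called members with a pair of cores before the start, all 250 upstream bases are shown. The cores begin at -71 and -45 in Mcoln1 and at -48 and -25 in Clcn6.
Mcoln1, chr8:3500269-3500518, plus strand: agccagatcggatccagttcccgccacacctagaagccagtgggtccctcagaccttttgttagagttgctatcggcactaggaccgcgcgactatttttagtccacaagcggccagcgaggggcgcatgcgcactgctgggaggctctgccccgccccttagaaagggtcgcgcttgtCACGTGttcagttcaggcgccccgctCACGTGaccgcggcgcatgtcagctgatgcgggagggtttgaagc
Clcn6, chr4:148038814-148039063, minus strand: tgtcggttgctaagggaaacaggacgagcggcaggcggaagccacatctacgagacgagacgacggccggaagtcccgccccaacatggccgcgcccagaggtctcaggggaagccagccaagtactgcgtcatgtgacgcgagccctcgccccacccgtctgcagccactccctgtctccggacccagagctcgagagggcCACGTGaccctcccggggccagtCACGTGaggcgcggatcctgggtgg

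The windows of Mcoln3, Atp6v0a1 and Ostm1, which were also higher with verapamil, held no CACGTG. Clcn7 and Atp6v0d1 both carry the core close to the start, and Clcn7 was called while Atp6v0d1 was not.

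The controls differed from each other in a way that followed transcript length, and the shortest pump subunits were among the members that differed most; the comparison was repeated after removing the length trend and after leaving out each control. Control replicate 3 was below control replicate 1 for 12 of 18 pump and accessory subunits and for 3 of the 14 other members. Across the 32 members the difference between the controls had a Pearson r of 0.70 with log2 length of the longest transcript. Across 12477 tested genes with a length r was 0.59, and all these points come from the same pair of libraries. Atp6v1f, Atp6v0b and Atp6v1g1, with longest transcripts of 806, 1000 and 1135 bases, were lower in control replicate 3 by log2 differences of -0.65, -0.60 and -0.61. Clcn3, with 8193 bases, was higher there by 0.52. The trend removed from each library was that with the length of all annotated exons of a gene, not of its longest transcript. For Mcoln1 these lengths were 7555 and 2889 bases. With that trend removed, 15 members were higher and 3 lower, and the share of all genes called was 34.9%, above the 25.4% without that step. Atp6v0d1, Atp6v1f and Atp6v1g1 were then called higher (log2 0.59, 0.35 and 0.53, edgeR adjusted p = 0.00189, 0.00728 and 0.00218), as were Clcn3 and Clcn5 (0.34 and 0.30, edgeR adjusted p = 0.0179 and 0.0488). Slc4a2 and Tpcn1 were called lower (-0.58 and -0.28, edgeR adjusted p = 0.00203 and 0.0351). Ostm1 was no longer called (0.29, edgeR adjusted p = 0.0555). The median of the 18 pump and accessory subunits was 0.13 with the trend removed. It was 0.31 with control replicate 1 left out and -0.03 with control replicate 3 left out.

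**Figure D4:**
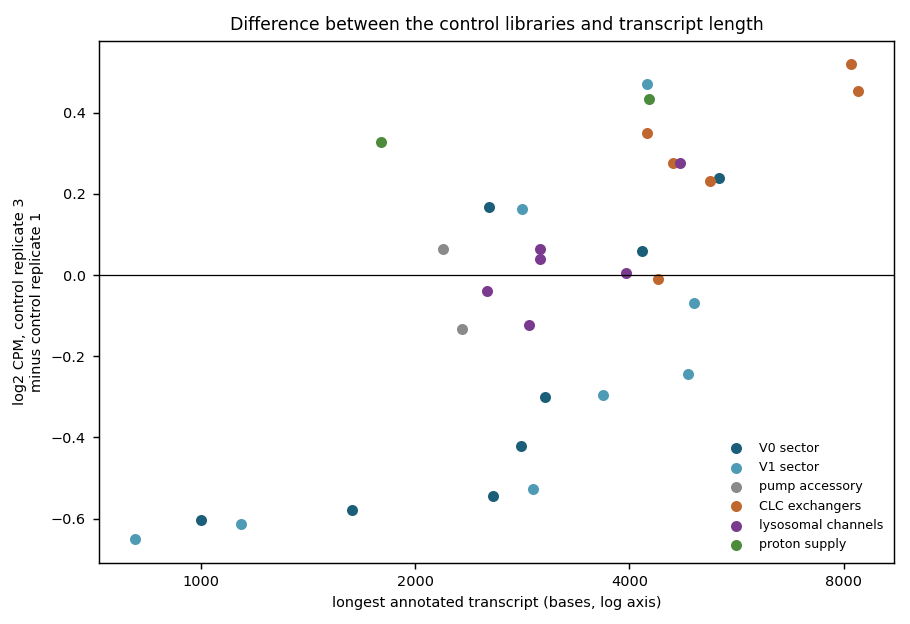
Difference between the control libraries (log2 CPM, replicate 3 minus replicate 1) against the length of the longest annotated transcript on a log axis, 1 point per tested member, coloured by role. The shortest pump subunits lie between -0.65 and -0.60, and the longest member genes, Clcn3 and Clcn5, lie at 0.52 and 0.45.

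Other genes of acid transport were taken from lists of genes that are not members. The counts of these lists stand beside 9.99% of all genes tested called higher and 15.4% called lower. Of 17 genes for pump assembly and regulation 2 were higher and 1 lower (median 0.04). All 3 belong to the mammalian counterpart of RAVE, the complex that puts V1 back on V0. Dmxl2 had 97.4, 127 and 115 CPM with verapamil, against 27.8 and 46.4 CPM in controls (log2 1.61, SE 0.243, edgeR adjusted p = 0.00585), and its partner Wdr7 had 183, 201 and 192 CPM, against 75.5 and 112 CPM in controls (log2 1.03, SE 0.179, edgeR adjusted p = 0.00977). Rogdi, the third component, had 6.39, 6.09 and 6.21 CPM with verapamil, against 17 and 11.4 CPM in controls (log2 -1.19, SE 0.19, edgeR adjusted p = 0.00732). These 3 calls held in all 12 alternative settings.

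Of 13 tested other chloride channel genes 4 were higher and 1 lower (median 0.38). The tweety gene Ttyh2 rose by 1.11 on the log2 scale (SE 0.0914, edgeR adjusted p = 0.000865), and Lrrc8b and Lrrc8d, subunits of the volume-regulated anion channel, by 0.79 and 0.59 (edgeR adjusted p = 0.0168 and 0.0251). Pacc1, a proton-activated chloride channel that was named after its values were seen, rose by 0.45 (edgeR adjusted p = 0.0184), and Clcn2, with 24 counts in verapamil libraries and 49 in controls, fell by 1.41 (edgeR adjusted p = 0.0204). The calls of Lrrc8b, Lrrc8d, Pacc1 and Clcn2 were lost without verapamil replicate 1, 2 or 3 (edgeR adjusted p from 0.0625 to 0.11), that of Clcn2 also without control replicate 1 (0.0601) and by DESeq2's Wald test, and that of Pacc1 with upper quartile factors.

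Of 9 proton and sodium-proton transporters tested 2 were higher and 1 lower (median 0.21). Slc9b2, a sodium-proton exchanger that rises during osteoclast formation, had 17.8, 16 and 16.4 CPM with verapamil, against 59.7 and 72.3 CPM in controls (log2 -1.98, SE 0.127, edgeR adjusted p = 0.000543). Slc9a7, an exchanger of the Golgi, rose by 0.83 and Hvcn1, the voltage-gated proton channel, by 0.43 (edgeR adjusted p = 0.0359 and 0.0164), calls lost with verapamil replicate 1, 2 or 3 left out (edgeR adjusted p from 0.0884 to 0.119), and for Hvcn1 with upper quartile factors. Slc9a7 stood at 0.53 with control replicate 1 left out and 1.23 with control replicate 3 left out. Of 6 tested bicarbonate and anion transporters 1 was higher and 0 lower (median -0.29), which was Slc26a11 (log2 1.03, SE 0.111, edgeR adjusted p = 0.00194). Of 4 tested other carbonic anhydrases 2 were higher and 0 lower (median 0.14). Car7, a cytosolic isoform, had 80 counts in verapamil libraries and 14 in controls (log2 2.10, SE 0.35, edgeR adjusted p = 0.0084), and Car13, another cytosolic isoform, had 41, 37.8 and 42.6 CPM with verapamil, against 25.8 and 32.1 CPM in controls (log2 0.48, SE 0.136, edgeR adjusted p = 0.0466). Car13 was not called with upper quartile factors (edgeR adjusted p = 0.0744), with no filter on low counts (0.0514), with the stricter filter (0.0555), or without verapamil replicate 1, 2 or 3 (edgeR adjusted p = 0.151, 0.123 and 0.182). Of 7 further pump isoforms 3 were in the table and 1, Atp6v1g2, was tested and not called (log2 -0.23).

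Of 9 other osteopetrosis genes tested 1 was higher and 4 were lower (median -0.18). Ctsk, the collagen-degrading protease, fell by 1.22 (SE 0.118, edgeR adjusted p = 0.00136). Lrrk1, Tnfrsf11a (the RANKL receptor RANK) and Snx10, a sorting nexin needed by osteoclasts, fell by 0.47, 0.44 and 0.44 (edgeR adjusted p = 0.0495, 0.043 and 0.0174). Plekhm1, a lysosomal trafficking adaptor that was named after its values were seen, rose by 0.37 (edgeR adjusted p = 0.033). All of these except Ctsk lost their call without verapamil replicate 1, 2 or 3 (edgeR adjusted p from 0.0952 to 0.171). With no filter on low counts Tnfrsf11a and Lrrk1 were not called (edgeR adjusted p = 0.0588 and 0.0641), nor was Plekhm1 with upper quartile factors (0.0866). Lrrk1 stood at -0.29 with control replicate 3 left out.

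Libraries held 20202340 to 21494523 estimated counts. Defining osteoclast markers were present in all libraries, and Acp5, Mmp9 and Ctsk, the highest of 10, had 545 to 879 CPM with verapamil and 1754 to 2678 CPM in controls. The summed CPM of the 10 osteoclast markers was 2322 to 2465 with verapamil and 6599 to 7228 in controls (8 of 10 lower). Sums over markers of other cells were also lower with verapamil: 5684 to 5885 CPM against 8749 to 9880 CPM for 10 macrophage genes (8 lower, 0 higher), 136 to 141 against 170 to 202 for 10 dendritic cell genes (7 lower, 1 higher), 2495 to 2815 against 3870 to 4420 for 12 stromal or osteoblast genes (8 lower, 0 higher), and 3.99 to 4.34 against 24.1 to 37.5 for 5 megakaryocyte genes (3 lower, 0 higher). Most of the stromal sum came from Spp1, which osteoclasts also express. Itgax, the dendritic cell gene called higher, made up most of the dendritic sum with verapamil. It had 120, 121 and 125.5 CPM with verapamil, against 49.9 and 65.4 CPM in controls. Pf4 made up most of the megakaryocyte sum in controls, at 32.7 and 20.2 CPM. Gp1ba, which was not called, made up most of it with verapamil and lay above both controls in all verapamil libraries. The 8 neutrophil genes in the table summed to 45 to 52.5 CPM with verapamil and 37.8 to 39.5 CPM in controls, mostly from Csf3r (1 higher, 1 lower of 3 tested). The 5 erythroid genes, a lineage that also makes Car2, summed to 1.48 to 2.07 CPM with verapamil and 3.2 to 4.99 CPM in controls. Epor made up most of that sum in every library. Klf1 lay above both controls in all verapamil libraries, on 10 counts with verapamil and 3 in controls, and Hba-a1 was at 0 in every library. The 3 lymphoid genes summed to at most 0.674 CPM. In bulk RNA, fewer cells of a type and less RNA per cell cannot be told apart, and the part of cell composition in the changes of the acidification genes was not tested.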

How the data were processed

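RNA from osteoclast cultures was made into libraries with a SMARTER mRNA kit, per the labels. The authors deposited a table of estimated counts per gene, and its values show no normalization. Per the submitters' processing notes the builds were GRCm38 and mm10. For the aligner, the counter and its annotation: not given in the sources used here. Labels describe 6 libraries, and control replicate 2 was not analysed here.

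Counts were rounded, and edgeR 4.0.16 in R 4.3.3 (TMM scaling, minimum count 10, minimum total 15, quasi-likelihood test with group as the only term) was fitted to all 12619 genes kept, with 3 residual degrees of freedom. Benjamini-Hochberg adjustment covered all genes, with calls at 0.05. CPM were scaled by TMM. Standard errors are the size of the estimate over the square root of F. The fit was tested on simulated data. These had the same spread in both groups and no length trend, unlike the real libraries, so they cannot show how the test behaves here. Lengths come from GENCODE M21 (16418 of 16775 genes matched), and positions from the RefSeq table of GRCm38.p6. Exact permutation tests used SciPy 1.17.1 in Python 3.11.15. Alternatives were RLE and upper quartile factors, DESeq2 1.42.0, no filter, a stricter filter (minimum count 30), the replicate number as a block, removal of the length trend, and leaving out each library. Replicate libraries differed by more than counting noise in every pair, with a variance ratio of 2.06 to 3.84 between verapamil libraries and 29.4 between controls.

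The members and lists were chosen with earlier results of these data known. Library values are given for called members, for the highest of each role, and for members whose call changed in an alternative that keeps all libraries; Tcirg1 was added after its values were seen. Of other lists, called genes are named up to the 4 largest changes.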

Additional observations from a re-analysis of the deposited data

How the results depend on the processing

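No called member reversed in any setting. Genes called ranged from 1460 to 7808 when a library was left out, members called from 5 to 22, members called higher from 4 to 20 and members called lower from 1 to 4. Members called lower were 2 with upper quartile factors, 2 with DESeq2's Wald test and 3 with the length trend removed. The shares of all genes called in those settings, in either direction, were 25.7%, 27.9% and 34.9%. The members' median log2 fold change was 0.0503 with upper quartile factors, which move the median of all genes from -0.01 to -0.13 and call 8 members higher. Of all genes called, 28.2% were higher with those factors, against 39.4% with TMM. The members' median was 0.145 with the stricter filter, 0.256 with the length trend removed and 0.17 to 0.33 when a library was left out.

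With the replicate number as a block (4 libraries) 8 members were higher and 1 lower, 3306 genes were called and the members' median was 0.197. Atp6v0a1, Clcn4, Ostm1 and Mcoln2 were not called in that fit (edgeR adjusted p = 0.111, 0.0691, 0.0936 and 0.114), and Clcn3 was (0.0347). Of the named genes outside the members, Pacc1, Hvcn1, Car13, Snx10, Plekhm1, Tnfrsf11a and Lrrk1 were not called in it (edgeR adjusted p from 0.0607 to 0.205). Only 2 numbers occur in both groups, so the libraries share a number and no pairing is shown: same-numbered libraries had deviations with r = 0.289 and 0.022.

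Uncalled subunits changed sign in some settings, and the cause was not tested. With upper quartile factors the log2 fold changes were -0.0022 for Atp6v0a2, -0.08 for Tcirg1, -0.0047 for Atp6v0c, -0.057 for Atp6v0e, -0.011 for Atp6v1d, -0.11 for Atp6v1e1, -0.13 for Atp6v1f, -0.035 for Atp6v1h and -0.028 for Atp6ap1. With the stricter filter they were -0.012 for Atp6v1e1 and -0.0303 for Atp6v1f, and with the length trend removed 0.048 for Atp6v0b, -0.095 for Atp6v1h and 0.11 for Atp6ap2. Leaving out a library gave -0.10 to 0.21 for Tcirg1, -0.43 to 0.18 for Atp6v0b, -0.12 to 0.43 for Atp6v0c, -0.13 to 0.30 for Atp6v0e, -0.026 to 0.27 for Atp6v1d, -0.22 to 0.31 for Atp6v1e1, -0.29 to 0.37 for Atp6v1f, -0.081 to 0.54 for Atp6v1g1, -0.028 to 0.22 for Atp6v1h and -0.0798 to 0.058 for Atp6ap2.

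Of the 12 called members 8 were called in all 7 settings that keep every library or use the block, and 5 in all settings that leave out a library. With 2 control libraries, the precision of every difference is limited by the spread of that pair.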
